A study of Mus musculus with 4 samples.

Results

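The receptors of the common gamma chain cytokines were followed in splenic regulatory T cells with and without Nrp1 (neuropilin-1), a surface receptor that binds semaphorins and VEGF. The family was taken as 8 genes chosen by name, Il2ra, Il2rb, Il2rg, Il7r, Il4ra, Il15ra, Il21r and Il9r, and every probe set that the platform annotation lists with one of them alone was used. This gave 13 of the 45101 probe sets on the array, for 7 of the 8 genes. Il2rg, which encodes the common gamma chain itself, had no probe set listed under its name here and was not analysed. All cells were CD4+ Foxp3+ and were sorted from spleens of Balb/c Foxp3 GFP mice, whose Foxp3-expressing cells are marked by green fluorescent protein. Foxp3 is the lineage-defining factor of regulatory T cells. The groups were Nrp1-positive (2 arrays) and Nrp1-negative (2 arrays). Mice were 4 to 6 weeks old for 3 arrays and 4 to 8 weeks for the array titled Nrp1-negative replicate 1. That array's source name and cell type read as Nrp1-positive, and its title was followed. The labels do not say whether mice were pooled or how many stand behind an array. A p-value therefore cannot be said to measure the spread between mice.

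Each receptor of this family joins the common gamma chain with one or more further chains. Il2ra and Il15ra encode alpha chains that hold interleukin-2 and interleukin-15, and Il2rb encodes the beta chain that both of these receptors share. Il7r, Il4ra, Il21r and Il9r encode the chains that join the common gamma chain to bind interleukins 7, 4, 21 and 9, in that order. Binding of cytokine brings together the kinases Jak1 and Jak3, which phosphorylate STAT transcription factors, chiefly Stat5 downstream of interleukin-2, interleukin-7 and interleukin-15 and Stat6 downstream of interleukin-4. Regulatory T cells are known for high Il2ra, for dependence on interleukin-2 and, in general, for less Il7r than conventional T cells.

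Il7r and Il2ra had the largest differences of the receptor genes tested, each taken at its brightest probe set. Their start-site regions are shown with motifs known for factors of this pathway. Each runs from 250 bases before to 50 bases after an annotated start in RefSeq (GRCm38.p6), 5′ to 3′ on the gene's strand. That table had 8 such windows for 7 of the 8 genes, without Il2rb. Capitals mark matches on either strand to TTCNNNGAA (STAT), CAGGAAG (Ets family), TGTGGT (Runx family) or GTAAACA (Foxo).

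Il7r, chr15:9529827-9530126, minus strand: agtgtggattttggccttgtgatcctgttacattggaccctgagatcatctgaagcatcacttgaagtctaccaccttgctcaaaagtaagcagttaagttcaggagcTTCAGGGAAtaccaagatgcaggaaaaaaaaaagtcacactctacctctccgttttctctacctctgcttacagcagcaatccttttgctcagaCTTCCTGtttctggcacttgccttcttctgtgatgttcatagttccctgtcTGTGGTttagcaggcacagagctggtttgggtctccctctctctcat

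Il2ra, chr2:11642542-11642841, plus strand: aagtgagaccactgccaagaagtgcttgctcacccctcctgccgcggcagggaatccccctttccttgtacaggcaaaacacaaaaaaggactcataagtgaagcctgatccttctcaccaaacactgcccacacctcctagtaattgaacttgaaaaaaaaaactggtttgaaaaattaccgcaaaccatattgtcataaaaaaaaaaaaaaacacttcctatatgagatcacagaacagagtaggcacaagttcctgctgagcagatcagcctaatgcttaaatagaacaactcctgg

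The Il7r window held 1 match each to the STAT, Ets and Runx motifs, with no overlap between them, and the Il2ra window held none. Over all 32851 windows of this length, 8.30% held the STAT motif, 13.3% the Ets motif, 16.8% the Runx motif and 3.65% the Foxo motif. Among the 8 windows of the receptor genes, 1 held the STAT motif, 2 the Ets motif, 4 the Runx motif and 1 the Foxo motif. A match describes these letters and is not a measured binding site.

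The deposited values are linear signal intensities, which had been scaled to a trimmed mean of 500.003 on both arrays numbered 1 and 150.001 on both numbered 2. The arrays of one number were also alike in other ways, with poly-A control intensities of 2277 to 2723 (median over control probe sets) for number 1 and 1.65 for number 2, and a correlation over genes of 0.979 and 0.985 within a number against 0.941 and 0.956 within a group. The deposited Gapdh signal of the 3′ probe set over the 5′ one, a sign of RNA quality, was 1.74 and 1.54 on the Nrp1-negative and Nrp1-positive arrays of number 1 and 0.763 and 0.711 on those of number 2, and its part in the results was not tested. The labels do not say what the number stands for. It was used as a block that holds 1 array of each group, and differences are given within each number. All arrays were brought to one trimmed mean and quantile normalised, and every difference is that of log2(intensity + 18.3), Nrp1-positive minus Nrp1-negative. Nrp1, the sorting marker, had intensities of 339 and 1223 on the Nrp1-negative arrays and 9077 and 8040 on the Nrp1-positive arrays, so the array with conflicting labels had the lowest level, as its title reads. Nrp1 differed by 4.67 within replicate 1 and 2.70 within replicate 2. The T cell genes Cd3d, Cd3e, Cd3g and Cd4 passed the level filter, and Foxp3 did not, with its probe set at percentile 18.0 of mean level.

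Il7r was the receptor gene with the largest difference between the groups among the 6 tested, and its RNA was higher in Nrp1-positive cells on the arrays of each number. Probe set 1448575_at had normalised intensities of 5749 and 4202 on the Nrp1-negative arrays of replicates 1 and 2, and of 8081 and 5655 on the Nrp1-positive arrays. Each Nrp1-positive array lay above its Nrp1-negative partner, and the groups overlapped, with replicate 1 brighter than replicate 2 in each group. The difference was 0.49 within replicate 1 and 0.43 within replicate 2, with a mean of 0.46 (1.37-fold). In limma with the replicate number as a block, the standard error was 0.10, the 95% interval 0.26 to 0.66 and the adjusted p = 0.0148 over 10200 genes. Without the block the standard error was 0.25 and the adjusted p = 1, and 0 genes passed in either direction (142 had an unadjusted p below 0.05). In bulk RNA, fewer cells that express a gene and less RNA per cell cannot be told apart.

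The second Il7r probe set, 1448576_at, had differences of the same sign. It had intensities of 1214 and 1697 on the Nrp1-negative arrays and 1795 and 2135 on the Nrp1-positive arrays, so that here the groups did not overlap. The difference was 0.56 within replicate 1 and 0.33 within replicate 2, with a 95% interval of 0.17 to 0.71 for their mean of 0.44. The probe sets differed in how they followed the replicate number, as replicate 2 minus replicate 1 was −0.48 for 1448575_at and 0.36 for 1448576_at. When every probe set past the filter was tested by itself with the block, 1448575_at passed (adjusted p = 0.0146) and 1448576_at did not (adjusted p = 0.128).

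The Il7r call depended on the model and the normalisation. With the block it was lost when the arrays were brought to one trimmed mean only (adjusted p = 0.135, difference 0.46). It was also lost when limma's mean-variance trend was left out (adjusted p = 0.494). Over the 9 settings with the block the adjusted p ranged from 0.00128 to 0.494. The direction of Il7r did not change in any of the 22 alternatives. The block, the trend, the filter and testing every probe set left its difference at 0.46 in this design, so they do not test the direction. Leaving out Nrp1-positive replicate 1 gave 0.20, Nrp1-negative replicate 2 gave 0.23 and Nrp1-positive replicate 2 gave 0.72, but such fits cannot separate replicate number from group. Moving the array whose labels conflict to the Nrp1-positive group gave 0.61. That fit left replicate 2 alone in the Nrp1-negative group, so it cannot separate replicate number from group either.

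**Figure D1:**
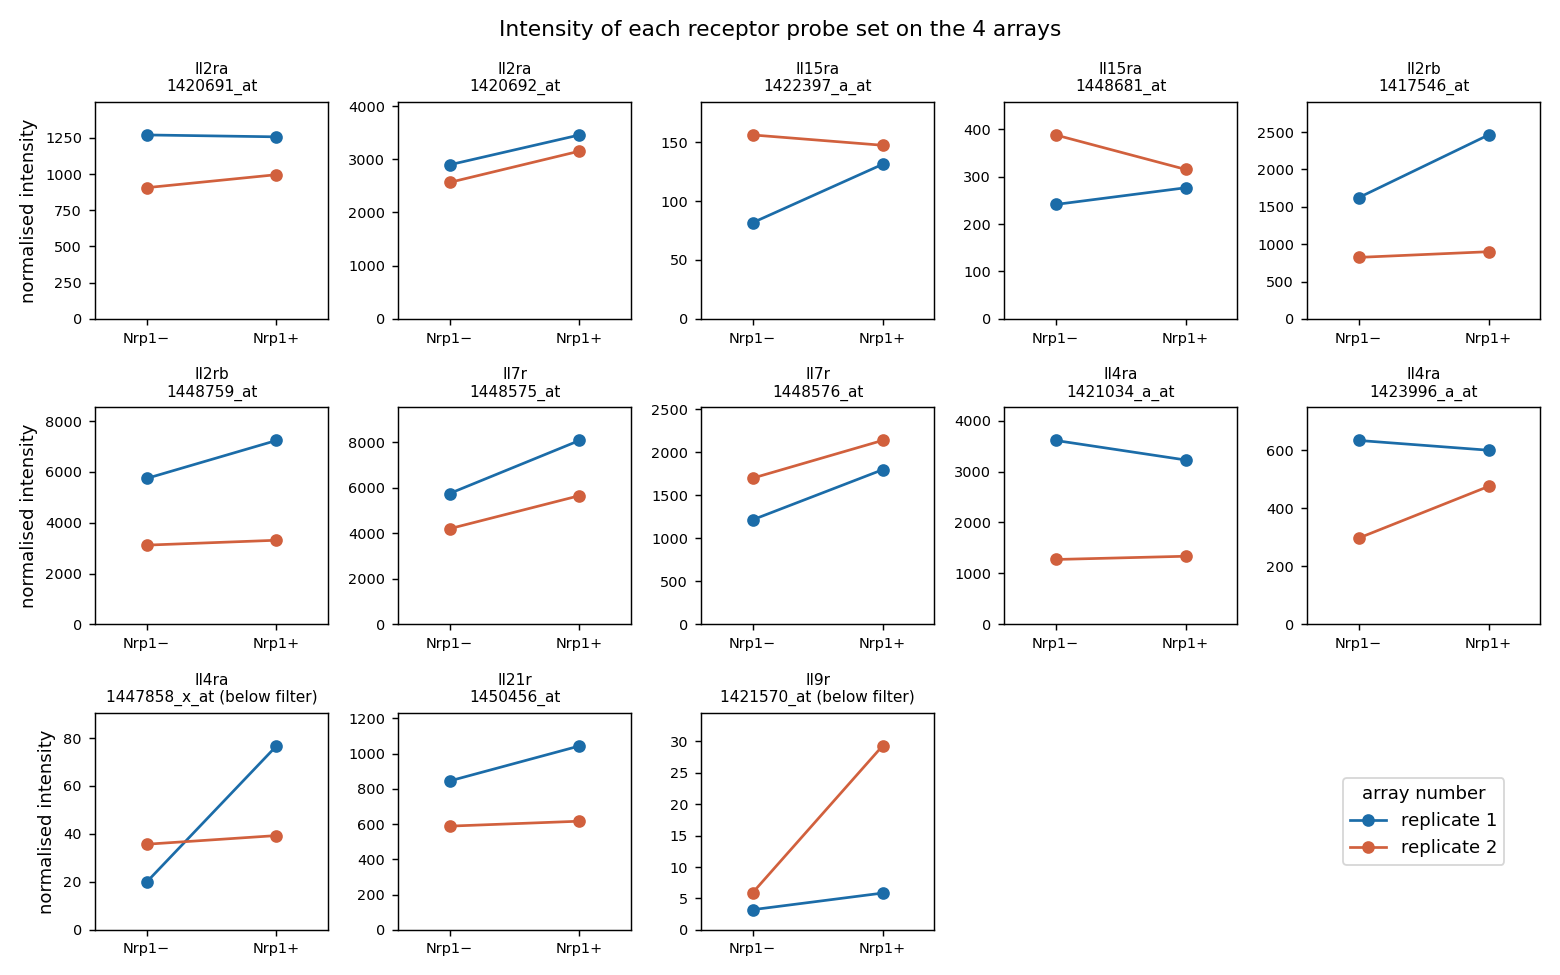
Normalised intensity (linear axis from 0) of all 13 receptor probe sets on the Nrp1-negative and Nrp1-positive arrays, with a line joining the arrays of one replicate number. Of the 13, 8 are higher at the Nrp1-positive end of both lines, among them both Il7r probe sets, both Il2rb probe sets and Il2ra 1420692_at. Of these 8, 6 passed the level filter, and 26.7% of all probe sets past the filter were higher in both replicates. The lines of both Il2rb probe sets and of Il4ra 1421034_a_at lie far apart by replicate number.

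Il2ra, the alpha chain of the interleukin-2 receptor, was 0.28 higher in Nrp1-positive cells at probe set 1420692_at, which did not pass. That probe set had intensities of 2895 and 2564 on the Nrp1-negative arrays and 3457 and 3152 on the Nrp1-positive arrays. The groups did not overlap, and the difference was 0.25 within replicate 1 and 0.30 within replicate 2 (1.21-fold). The 95% interval with the block was 0.05 to 0.50, with an adjusted p = 0.345 in limma. The other Il2ra probe set, 1420691_at, had intensities of 1271 and 906 on the Nrp1-negative arrays and 1258 and 996 on the Nrp1-positive arrays. It differed by −0.01 within replicate 1 and 0.13 within replicate 2, so the probe sets of Il2ra disagreed in replicate 1. With the mean of the probe sets the Il2ra difference was 0.17, smaller than that of Il2rb by the same choice (0.28).

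Il2rb, the beta chain shared by the interleukin-2 and interleukin-15 receptors, was higher on the Nrp1-positive array of each number without passing. Probe set 1448759_at had intensities of 5741 and 3117 on the Nrp1-negative arrays and 7237 and 3310 on the Nrp1-positive arrays. The gap within replicate 1 was wider than within replicate 2, at 0.33 against 0.09, and the 95% interval of the mean with the block was −0.01 to 0.43 (adjusted p = 0.545). Probe set 1417546_at, with intensities of 1623 and 823 on the Nrp1-negative arrays against 2463 and 899, gave 0.60 and 0.12. Both probe sets were much dimmer in replicate 2, by −1.0 and −1.2, a shift several times the group difference. The mean difference of Il2rb was below 0 without Nrp1-negative replicate 2 (−0.23) or without Nrp1-positive replicate 1 (−0.35), which mix that shift with the group.

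Il15ra, the alpha chain that binds interleukin-15 and presents it to neighbouring cells, had differences of opposite sign in the replicates. Its brighter probe set, 1448681_at, had intensities of 241 and 388 on the Nrp1-negative arrays and 277 and 315 on the Nrp1-positive arrays. These differ by 0.18 within replicate 1 and −0.28 within replicate 2, and the 95% interval with the block was −0.50 to 0.40 (adjusted p = 0.980). The other, 1422397_a_at, had 81.6 and 156 against 131 and 147 and gave 0.58 and −0.07. A change of Il15ra of up to about that interval was not resolved by 4 arrays.

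**Figure D2:**
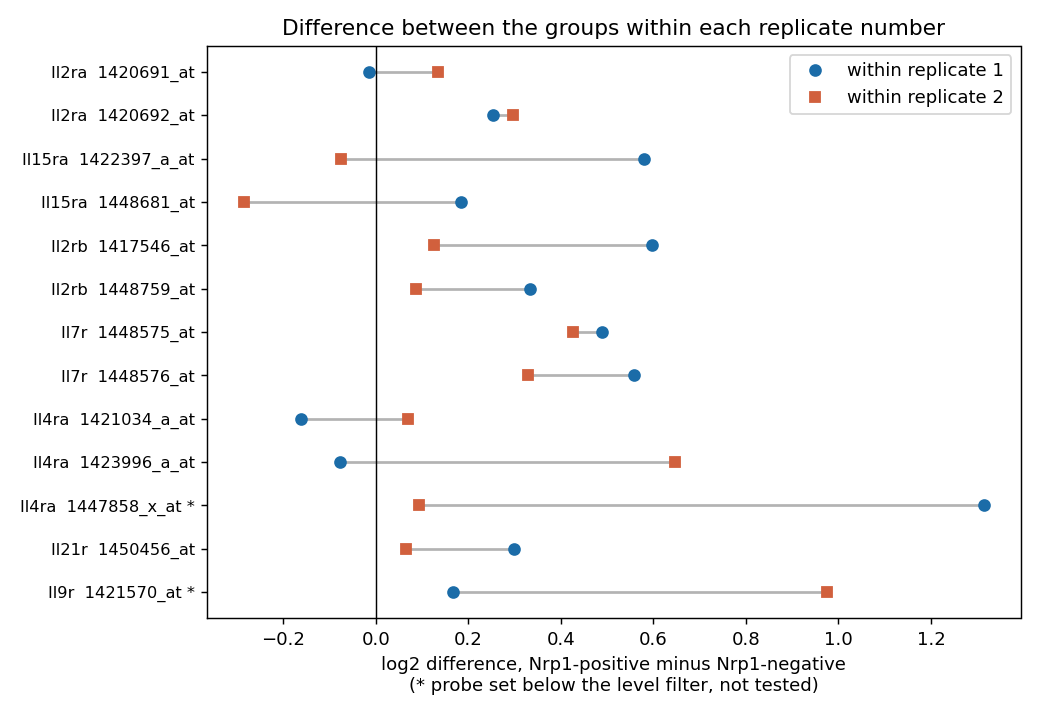
Difference between Nrp1-positive and Nrp1-negative arrays (log2 scale) for each receptor probe set within replicate 1 (circles) and within replicate 2 (squares), with asterisks for the 2 probe sets below the level filter. The points of both Il7r probe sets lie between 0.33 and 0.56, and 5 probe sets have points on opposite sides of 0.

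Il4ra, the chain that binds interleukin-4 and, with a partner outside this family, interleukin-13, showed no resolved difference at its brightest probe set. Probe set 1421034_a_at had intensities of 3610 and 1274 on the Nrp1-negative arrays and 3227 and 1337 on the Nrp1-positive arrays. The difference was −0.16 within replicate 1 and 0.07 within replicate 2, with a 95% interval of −0.30 to 0.20 (adjusted p = 0.974 with the block). Probe set 1423996_a_at had 634 and 298 against 601 and 476, which gave −0.08 and 0.65. A dim probe set below the filter, 1447858_x_at, had 19.9 and 35.7 against 76.7 and 39.3 and was not tested. The 3 Il4ra probe sets therefore differed in both sign and size, and averaging those past the filter turned the sign to 0.12. Il4ra was also the member with the largest shift between replicates, at −1.37 for 1421034_a_at.

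Il21r, the chain specific to interleukin-21, a cytokine of follicular helper T cells, was measured by a single probe set. Its intensities were 844 and 588 on the Nrp1-negative arrays and 1043 and 616 on the Nrp1-positive arrays. The Nrp1-positive array was the higher one of each pair, by 0.30 and 0.07, while the groups overlapped. The 95% interval with the block was −0.14 to 0.50 (adjusted p = 0.802).

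Il9r, the chain specific to interleukin-9, had its only probe set at percentile 11.8 of mean level, below the filter at percentile 50, and was not tested. The intensities were 3.21 and 5.90 on the Nrp1-negative arrays and 5.85 and 29.3 on the Nrp1-positive arrays. The deposited values carry no detection calls, so no level can be given to Il9r beyond these dim signals.

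Of the 13 receptor probe sets, 11 passed the filter, and 6 of these 11 were higher in Nrp1-positive cells within both replicates while 5 took opposite signs. Of all 18837 probe sets past the filter, 26.7% were higher in both replicates. The groups did not overlap, with Nrp1-positive higher, in 2 of the 11 (Il7r 1448576_at and Il2ra 1420692_at) and in 10.7% of all. In limma with the block, 1 of the 6 receptor genes tested was called higher, Il7r, and 0 lower, where 1.05% of all 10200 genes were called higher and 0.608% lower. Tested by single probe set, 1 of the 11 was called higher against 0.695% of all. The median difference over the 6 genes was 0.20, beside 0.00 over all genes tested. The shift between replicates was larger than the group difference for 5 of the 6 genes, Il2ra being the exception, with a median size of 0.55 over the 6 genes against 0.27 over all genes, and 9 of the 13 probe sets were dimmer in replicate 2.

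**Figure D3:**
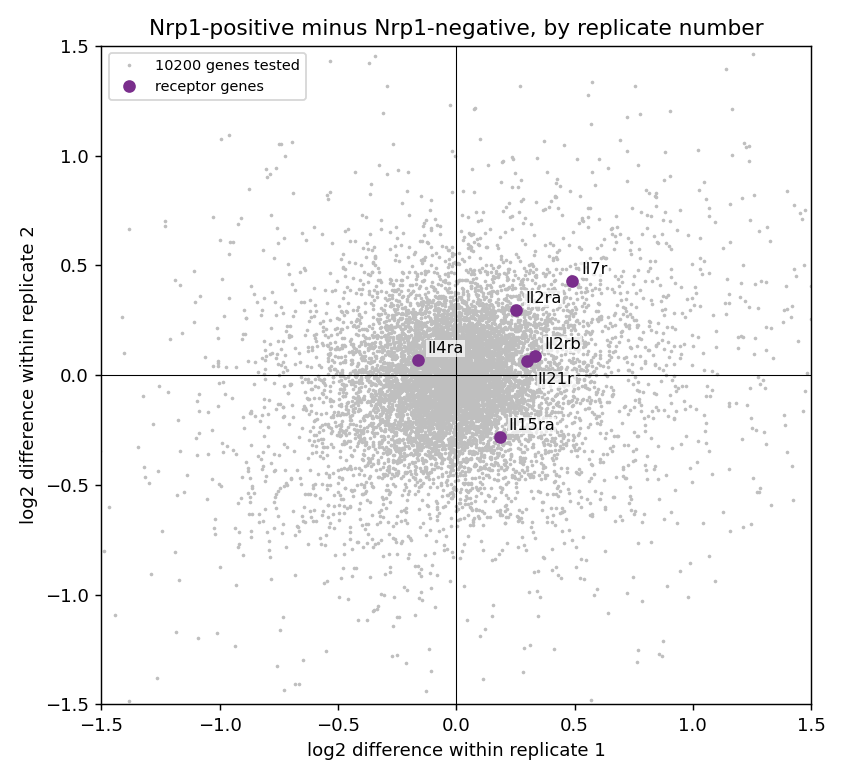
Difference between Nrp1-positive and Nrp1-negative cells (log2 scale) within replicate 1 (horizontal) against replicate 2 (vertical) for the genes tested, with the 6 receptor genes named; axes end at 1.5 and leave 99 genes outside. Il7r and Il2ra lie near the diagonal in the upper right, Il2rb and Il21r close to the horizontal line at 0.

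The rest of the pathway was described with 42 further genes in 7 lists. Of these, 34 passed the filter, and with the block 2 were higher (Pik3r1 and Pim1), 0 lower and 32 did not pass, while 0 passed without the block. Of all 10200 genes, 1.05% were called higher and 0.608% lower with the block. The median difference over the 34 was 0.11, beside 0.00 over all genes tested. The 6 cytokine genes Il2, Il4, Il7, Il9, Il15 and Il21, which encode the ligands, were all below the filter. Their 8 probe sets had intensities from 1.15 to 91.0 at percentiles 5.81 to 45.8, so no ligand was tested in these cells.

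Pik3r1, which encodes the regulatory subunit of phosphatidylinositol 3-kinase, had intensities of 4034 and 2902 on the Nrp1-negative arrays and 6181 and 3491 on the Nrp1-positive arrays. Its difference was 0.61 within replicate 1 and 0.27 within replicate 2, with a mean of 0.44 and an adjusted p = 0.0495 in limma with the block. Pim1, a survival kinase gene induced through Stat5, had 11183 and 4580 against 13499 and 6572. It differed by 0.27 and 0.52, with a mean of 0.40 (adjusted p = 0.0398). The groups overlapped for each of these genes, and both calls were lost with one trimmed mean only (adjusted p = 0.224 for Pik3r1 and 0.282 for Pim1), without the trend (0.569 and 0.581), with the smaller pseudocount (0.0938 and 0.0764) and with the filter at percentile 70 (0.0717 and 0.0529). The Pik3r1 call was also lost with the mean of its probe sets (adjusted p = 0.104) and with every probe set tested by itself (0.0525). Leaving out 1 array, where replicate number and group are no longer separate, gave a Pik3r1 difference of 0.03 without Nrp1-positive replicate 1, of 0.20 without Nrp1-negative replicate 2, of 0.68 when Nrp1-negative replicate 1 was dropped and of 0.85 when Nrp1-positive replicate 2 was dropped. Pim1 was −0.12, −0.25, 1.04 and 0.91 in the same order.

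Janus kinase and STAT genes did not pass. All 6 were tested, 5 had a difference above 0 and the list median was 0.14, beside a median near 0 over all genes tested. Stat5a, which carries the interleukin-2 and interleukin-7 signal, had the largest difference of this list, with intensities of 1674 and 979 on the Nrp1-negative arrays against 2097 and 1292. It was 0.32 higher within replicate 1 and 0.39 within replicate 2, with a 95% interval of 0.09 to 0.62 and an adjusted p = 0.245 with the block. Jak1 differed by −0.16 and Jak3 by 0.13, and neither passed.

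Inhibitors of the pathway did not pass either. Of 7 tested, 5 had a difference above 0, with a list median of 0.20 beside a median near 0 over all genes tested. Socs3, a suppressor of cytokine signalling, had a difference of −0.35, with 7198 and 6154 on the Nrp1-negative arrays against 5823 and 4657. It differed by −0.31 within replicate 1 and −0.40 within replicate 2 (adjusted p = 0.0803 with the block). Over the 9 settings with the block the Socs3 adjusted p ranged from 0.00329 to 0.592, and it passed with the mean of probe sets (0.00329) and with a pseudocount of 1 median (0.0281). With 1 array left out the Socs3 difference ranged from −0.51 without Nrp1-positive replicate 1 to −0.19 without Nrp1-positive replicate 2, and it was −0.24 without Nrp1-negative replicate 1. It was −0.085 with the array of conflicting labels counted as Nrp1-positive. Fits with an array left out or moved cannot separate replicate number from group. Cish, a direct target and inhibitor of Stat5 signalling, differed by 0.20 (adjusted p = 0.588 with the block).

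In the list of targets, Pim1 was the member that passed of 7 tested, and the survival gene Bcl2 had a difference of 0.22 (adjusted p = 0.530). Of 6 adaptor and kinase genes, Pik3r1 passed and 5 did not, and the largest difference was that of the dim adaptor gene Gab2 at −0.46, with a 95% interval of −1.30 to 0.38. Of 7 genes for transcription factors known to act on members, 0 passed and 4 had a difference above 0. The list median was 0.07, beside a median near 0 over all genes tested. Foxp1 had the largest difference at −0.37 (−0.49 and −0.24, adjusted p = 0.0742 with the block), and its groups overlapped. Klf2 had the largest difference above 0 in this list, at 0.25 (0.19 and 0.30, adjusted p = 0.269 with the block), and its groups overlapped. Gfi1 was at 0.23 (0.34 and 0.11, adjusted p = 0.649 with the block). Its groups did not overlap, as was so with Nrp1-positive higher for 10.7% of all probe sets past the filter. Foxp1 passed with the block and a pseudocount of 1 median (adjusted p = 0.0181), and its adjusted p over the 9 settings with the block reached 0.602. Foxo1 differed by −0.04. Crlf2, whose product pairs with the interleukin-7 receptor chain to bind thymic stromal lymphopoietin, differed by 0.13 (adjusted p = 0.823), and Il13ra1 and Il13ra2 were below the filter.

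**Figure D4:**
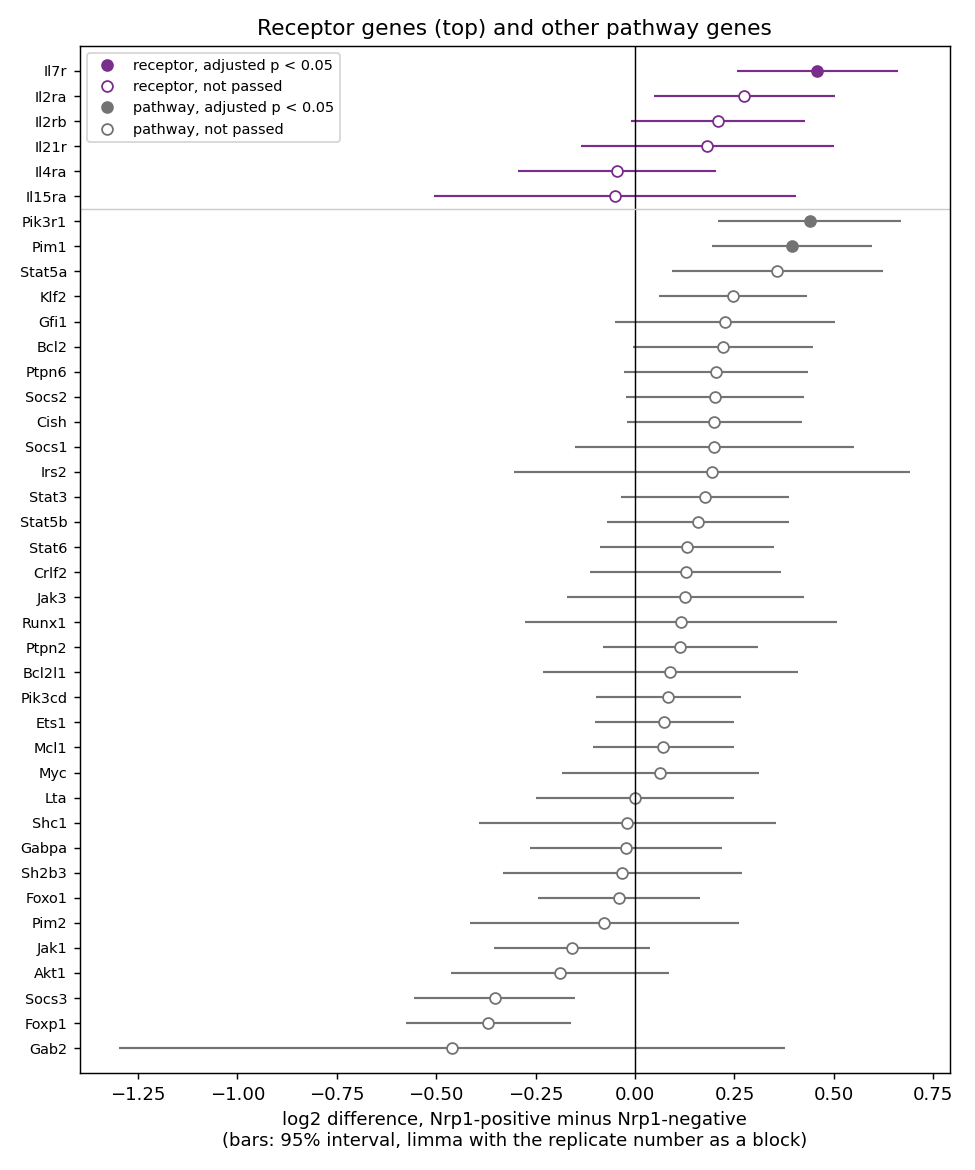
Mean difference between Nrp1-positive and Nrp1-negative cells (log2 scale) with its 95% interval from limma with the replicate number as a block, for the 6 receptor genes above the grey line and the 34 other pathway genes below it. Filled points passed at an adjusted p below 0.05: Il7r, Pik3r1 and Pim1.

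Several marker lists differed between the groups or the replicate numbers beside these results, and their part in them was not tested. Of 4 tested of 7 markers of naive and conventional CD4 T cells, Ccr7 (−0.49) and Satb1 (−0.39) were lower with the block, while Lef1 (−0.22) and S1pr1 (0.17, or 0.27 and 0.07 within the replicates) did not pass. Their summed intensity was 22939 to 29291 on the Nrp1-negative and 18269 to 24251 on the Nrp1-positive arrays. Of 9 tested proliferation genes of 10, Birc5, Stmn1 and Ube2c were lower with the block and 6 did not pass, with sums of 6227 and 31119 on the Nrp1-negative arrays against 4975 and 21492, replicate 1 first. The 8 myeloid and conventional dendritic cell markers did not pass, and their sum followed the replicate number, at 12811 and 15316 in replicate 1 against 61154 and 54748 in replicate 2, Nrp1-negative first. Markers of B cells (3 tested of 8), of CD8 T and NK cells (7 of 8), of plasmacytoid dendritic cells (3 of 4) and of erythroid cells (1 of 5) had none that passed. Their sums ranged from 7844 to 8932, 1686 to 3859, 1187 to 1799 and 88.3 to 135 on the Nrp1-negative arrays. On the Nrp1-positive arrays the sums ranged from 6840 to 8117, 2080 to 2908, 1141 to 1865 and 59.1 to 82.6. The B cell sum was mostly Ighm, with 7560 and 8506 on the Nrp1-negative and 6453 and 7568 on the Nrp1-positive arrays. Ighm differed by −0.20, while Cd79b (0.48) and Cd22 (0.16) had differences above 0. No marker of these lists with a probe set was listed at 0, but without detection calls this does not show that a marker was detected. Of the 9 regulatory and CD4 T cell markers, 8 were tested, and Nrp1, Ikzf2 and Tnfrsf18 were higher with the block.

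Across the 10200 genes tested, the 3 whose values over the 4 arrays lay closest to those of Il7r, by Euclidean distance after centring each gene, were Cc2d1a (0.05), Grasp (0.06) and Egfr (0.07). Their differences within replicates 1 and 2 were 0.46 and 0.48 for Cc2d1a, 0.51 and 0.49 for Grasp and 0.45 and 0.34 for Egfr. None of the 3 passed with the block, where their adjusted p-values were 0.220, 0.241 and 0.733.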

How the data were processed

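Biotin-labelled RNA of sorted spleen cells had been hybridised to a 1-colour Affymetrix array, per the labels' protocols. The authors deposited 1 linear intensity for each probe set and array, computed by MAS5 (per the submitters' processing notes), with settings not given in the sources used here and without detection calls. The 4 arrays were scaled to one trimmed mean (2% trimmed at each end), quantile normalised and analysed as log2(intensity + 18.3), a pseudocount of 0.25 of the mean array median, so that fold changes of dim genes are understated. Probe sets listed with 1 gene whose mean log2 level reached percentile 50 were kept, and the brightest stood for its gene, which gave 10200 genes.

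Groups came from the titles. Genes were tested with limma 3.58.1 in R 4.3.3 (two-sided, empirical Bayes with trend, Benjamini-Hochberg at 0.05 over all genes), without a block as the first design and with the replicate number as a block beside it. The block rests on the files: deviations of same-numbered arrays from their group means correlated at 0.725 over genes. With the block, 1 residual degree of freedom joined 17.7 from the variance prior, so a standard error there rests mostly on the variances of other genes. Scripts were tested on simulated data. All members are named. Of the pathway lists, the ligands, every gene past the threshold and the largest difference in each list are named by rule. Jak1, Jak3, Cish, Bcl2, Foxo1, Gfi1, Klf2, Il13ra1 and Il13ra2 were added after their values were seen. Members and lists were chosen with earlier results of these data known. Drawings were made with matplotlib 3.10.9.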

Additional observations from a re-analysis of the deposited data

How the results depend on the processing

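Without the block limma called 0 genes in either direction (142 at an unadjusted p below 0.05), as did every other setting without the block on all 4 arrays. With the replicate block as a term for the pairing, the counts of genes higher and lower were 107 and 62. With the block and one further choice they were 29 and 17 with one trimmed mean only, 72 and 47 with a pseudocount of 0.05 median, 188 and 108 with 1 median, 122 and 74 with no filter, 82 and 46 with the filter at percentile 70, 211 and 114 with the mean of probe sets and 131 and 89 with every probe set. Without the trend, the block gave 0 in either direction. All of these except the trimmed mean and the trend were chosen after seeing the data. With 1 array left out, genes higher ranged from 0 to 1 and genes lower from 0 to 0.

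Of the 6 receptor genes tested, Il7r and Il2ra kept their direction under every alternative run. The block, the trend, the filter and testing every probe set left the differences of both genes unchanged, so these settings do not test direction. Averaging probe sets, with or without the block, turned Il4ra to 0.12 and Il15ra to 0.10. With the array of conflicting labels placed among the Nrp1-positive ones, Il4ra was 0.96, Crlf2 −0.22 and Foxp1 0.31. Over arrays left out, Il2rb ranged from −0.35 to 0.77, Il4ra from −0.79 to 0.70, Il15ra from −0.37 to 0.27, Il21r from −0.19 to 0.55, Crlf2 from −0.10 to 0.36, Foxp1 from −0.78 to 0.046, Gab2 from −1.16 to 0.24, Pim1 from −0.25 to 1.04 and Stat5a from −0.023 to 0.74. Fits with an array left out or moved leave 1 group with a single replicate number and cannot separate number from group. Il15ra and Gab2 did not pass the filter at percentile 70 and have no value there. The number of arrays and dim signals limit the precision.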
